A study of Rattus norvegicus with 8 samples.

Results

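The response of rat chondrocytes to TNFα while the kinases MEK1/2 were inhibited was read from 4 of the 8 arrays of the study. Chondrocytes were isolated from the upper cartilage of the femoral condyle of neonatal Sprague Dawley rats, grown to confluence in monolayer on plastic, and held overnight without serum. They were then pretreated for 30 min with U0126, a small molecule inhibitor of MEK1/2, and received either vehicle (BSA) or human recombinant TNFα at 30 ng/ml for 24 h. Each group had 2 arrays, 1 from each of 2 independent experiments, and the replicate number in the labels gave the experiment by which treated and untreated arrays were paired. The other 4 arrays were of the same cells pretreated with the solvent DMSO and given vehicle or TNFα, and served here to read the response without the inhibitor. All 8 cultures were serum-deprived monolayers outside the joint. The p-values rest on how far the effects of treatment differed between only 2 experiments. That spread was taken per probe set over all 8 arrays, so the arrays without U0126 enter it too.

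TNFα is a cytokine of inflamed joints. Through its receptors it activates NF-κB, a family of transcription factors that are held in the cytoplasm by inhibitor proteins and, once freed, induce chemokines, adhesion molecules and their own inhibitors. In parallel it activates MAP kinase cascades, among them the step in which MEK1/2 phosphorylate ERK1/2, and in cartilage it is known to reduce matrix gene expression and to raise proteinases. U0126 is used to block the MEK1/2 step. The comparison of U0126 with TNFα against U0126 alone therefore asked which transcripts still moved with TNFα when that step was blocked.

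With U0126 present, the transcripts called higher with TNFα included 8 of 31 chemokines, 15 of 30 genes of the NF-κB list and 5 proteasome genes. They also included 2 of 16 leukocyte adhesion genes, both of which are on the NF-κB list too. Ccl2 rose 36.7-fold in experiment 1 and 29.8-fold in experiment 2. The fallen transcripts were fewer and their changes smaller, and Abcc9, Gdf10 and Cavin2 led them. Of 31042 probe sets, 257 were higher (0.828%) and 123 lower (0.396%) by limma at a Benjamini-Hochberg adjusted p under 0.05, in a fit of all 8 arrays that took the 2 experiments as blocks. Counted as genes, by the brightest probe set of each of 14217 genes with 1 symbol, 166 were higher (1.17%) and 72 lower (0.506%). The median log2 change was 0.86 among the genes called higher and -0.59 among those called lower, against -0.01 over all genes. In both experiments 65 genes were at least 2-fold higher and 4 at least 2-fold lower, whether called or not. An unadjusted limma p under 0.05 was met by 1967 of the 14217 genes, the share to set beside such counts in the lists below.

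By a rule with no p value, a fold of at least 1.45 in the same direction in both experiments, 281 probe sets were higher (0.905%) and 94 lower (0.303%), and 2 passed this size in opposite directions. The limma calls and this rule shared 246 probe sets. The number of limma calls depended on the arrays: it was 20 higher and 0 lower without the U0126 array of experiment 1, 52 and 1 without that of experiment 2, 30 and 2 without the U0126 with TNFα array of experiment 1, and 41 and 3 without that of experiment 2. Without either array of TNFα alone it was 375 and 197. With 1 array left out, the calls of a list fell to as few as 6 of the 15 in the NF-κB list and 3 of the 8 chemokines, and with no block for the experiment 3 and 0 of them were left.

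**Figure D1:**
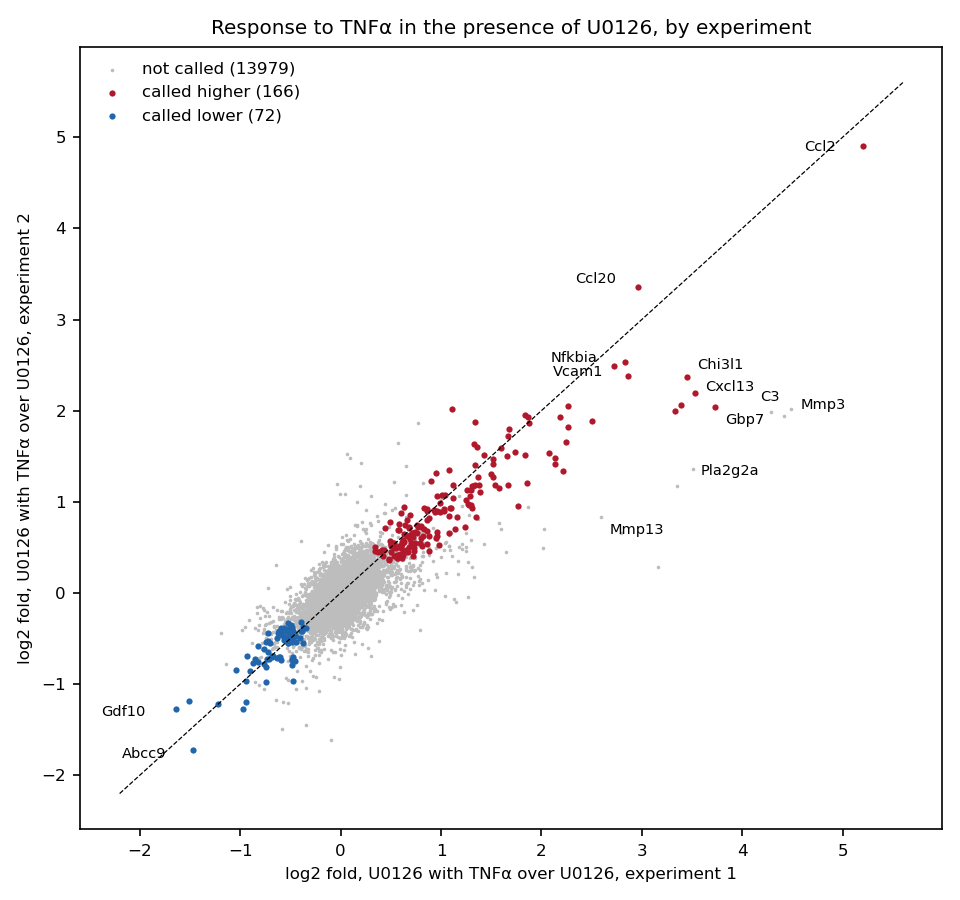
Log2 fold change of U0126 with TNFα over U0126 in experiment 1 (horizontal) and in experiment 2 (vertical), 1 point per gene. Red points are the 166 genes called higher and blue points the 72 called lower by limma, grey points are genes not called, and the dashed line marks equal change. Ccl2 lies at the far end in both experiments, while Mmp3, C3, Pla2g2a and Mmp13 lie well below the line.

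In the plot of both experiments, called genes lay mostly near the line of equal change. A gap between the experiments raises the standard error and makes a call harder, so this position is no test of agreement. Across genes, which are not independent replicates, the log2 changes of the 2 experiments had a Pearson r of 0.715. Counts below of list members that moved the same way in both experiments have no share over all genes beside them. They therefore cannot show that a list moved more than other genes. Among the genes called higher, 121 of 166 rose more in experiment 1, and among those called lower, 38 of 72 fell more there. The arrays can show a change in the RNA of the whole culture only, so fewer cells of a type and less RNA per cell cannot be told apart.

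The promoter windows of 4 of the genes with the largest rises are shown because they carry the short sequences that transcription factors of the TNFα and interferon pathways are known to recognise. They are RefSeq windows from 250 bases before to 50 after the gene start on GRCr8, written 5′ to 3′ on the strand of the gene. Capitals mark matches on either strand to a κB motif (GGNNTTTCC), an interferon-stimulated response element (ISRE, GAAANNGAA) or a gamma-activated sequence (GAS, TTCNNNGAA). The windows lay at chr9:91836909-91837208 on the plus strand for Ccl20, chr2:233948639-233948938 on the plus strand for Gbp7, chr14:17479272-17479571 on the minus strand for Cxcl1 and chr6:78597023-78597322 on the minus strand for Nfkbia.
Ccl20: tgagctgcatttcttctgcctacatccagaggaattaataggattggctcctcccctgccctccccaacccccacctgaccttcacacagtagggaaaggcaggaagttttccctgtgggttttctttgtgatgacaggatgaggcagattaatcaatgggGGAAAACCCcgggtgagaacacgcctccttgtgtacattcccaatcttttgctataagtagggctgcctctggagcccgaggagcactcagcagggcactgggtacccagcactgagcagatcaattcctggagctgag
Gbp7: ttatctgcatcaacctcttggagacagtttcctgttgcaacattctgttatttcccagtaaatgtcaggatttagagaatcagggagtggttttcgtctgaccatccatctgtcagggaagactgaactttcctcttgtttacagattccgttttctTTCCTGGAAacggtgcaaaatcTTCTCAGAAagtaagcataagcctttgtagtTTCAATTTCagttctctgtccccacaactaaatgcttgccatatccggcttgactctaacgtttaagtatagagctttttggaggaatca
Cxcl1: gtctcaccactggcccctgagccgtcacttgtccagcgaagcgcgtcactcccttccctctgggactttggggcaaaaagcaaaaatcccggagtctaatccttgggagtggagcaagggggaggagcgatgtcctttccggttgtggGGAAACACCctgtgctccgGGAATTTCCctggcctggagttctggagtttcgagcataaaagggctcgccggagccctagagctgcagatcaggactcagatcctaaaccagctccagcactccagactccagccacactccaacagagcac
Nfkbia: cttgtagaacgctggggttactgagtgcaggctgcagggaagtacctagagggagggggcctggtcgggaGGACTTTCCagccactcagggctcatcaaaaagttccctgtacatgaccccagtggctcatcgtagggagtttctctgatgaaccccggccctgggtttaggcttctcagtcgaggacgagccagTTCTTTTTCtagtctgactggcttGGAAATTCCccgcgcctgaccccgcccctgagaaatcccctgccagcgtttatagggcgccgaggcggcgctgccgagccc
In Ccl20 the κB match began 89 bases before the start. In Cxcl1 κB matches began 102 and 83 bases before it. Nfkbia, which encodes the NF-κB inhibitor IκBα, had κB matches 180 and 31 bases before its start and an ISRE match 55 bases before it. Gbp7 had GAS matches 93 and 71 bases before its start and an ISRE match 40 bases before it.

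A window was found for 13 of the 15 genes with the largest rises. Ccl2 and Birc3 had none in the table. Of these 13 windows, 6 held the κB motif, 4 the ISRE, 3 the GAS motif, 3 an AP-1 motif (TGANTCA) and 0 an Egr motif (GCGNGGGCG), and those of Chi3l1, Cxcl13, Icoslg and Cx3cl1 held none of the 5. Over the 139 genes called higher that had a window, 18% held the κB motif, against 1.72% of 58 genes called lower, 6.05% of 11700 genes on the array and 6.03% of all 27457 promoter windows. The ISRE was held by 20.1% of the genes called higher, 3.45% of those called lower, 7.19% of the genes on the array and 9.50% of all windows. For the GAS motif these shares were 12.2, 10.3, 6.99 and 8.68%, for AP-1 10.1, 5.17, 5.43 and 7.33%, and for the Egr motif 12.9, 10.3, 9.45 and 5.29%. The κB, ISRE and GAS motifs can overlap in the letters they share, and a match is only a description of the letters in this window.

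Chemokines, the small secreted proteins that attract leukocytes, made up 6 of the 15 largest rises. Of 31 chemokines measured, 8 were called, all higher, and the median log2 change of the list was 0.18. Ccl2, which attracts monocytes, had intensities of 218 and 497 with U0126 in experiments 1 and 2, and of 8010 and 14826 with U0126 and TNFα. Its log2 change was 5.05 with a standard error of 0.26 (limma adjusted p = 8.80e-04). Its neighbour in function Ccl7 rose from 223 and 544 to 1465 and 3046 (log2 2.60 ± 0.16, SE, adjusted p = 0.00167). For both genes each array with TNFα was above each array without it.

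Ccl20, the ligand of Ccr6 on T helper and dendritic cells, rose from 301 and 470 to 2343 and 4817 (log2 3.16 ± 0.30, SE, adjusted p = 0.00659), and was the only one of the 6 largest rises that was larger in experiment 2. Cxcl1, which attracts neutrophils, rose from 354 and 332 to 3704 and 1386 (log2 2.72 ± 0.39, SE, adjusted p = 0.0289). Cxcl13, which attracts B cells, rose from 524 and 2257 to 6045 and 10313 (log2 2.86 ± 0.36, SE, adjusted p = 0.0175). The rise of Cxcl1 was 10.4-fold in experiment 1 against 4.17-fold in experiment 2, and that of Cxcl13 was 11.5-fold against 4.57-fold. Cx3cl1, a membrane-bound chemokine, rose from 869 and 1507 to 4165 and 5333 (log2 2.04 ± 0.19, SE, adjusted p = 0.00642).

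The ligands of Cxcr3, which the interferons are known to induce, moved with little spread between the experiments. Cxcl11 rose from 340 and 409 to 1210 and 1583 (log2 1.89 ± 0.06, SE, adjusted p = 4.76e-04). Cxcl10 rose from 222 and 202 to 816 and 735, by 3.68-fold and 3.64-fold (adjusted p = 0.00532). Of the other 23 chemokines, Ccl9 had values of 86.7 and 61.8 with U0126 and 148 and 225 with TNFα added, and missed the threshold (adjusted p = 0.0882). Cxcl12, which attracts lymphocytes and stem cells, had log2 0.50 (adjusted p = 0.309) by its brightest probe set. Its probe sets did not give 1 answer: the dimmest went from 896 and 1437 to 1567 and 2600 and was called (log2 0.83, adjusted p = 0.0456), and the third had log2 0.84 (adjusted p = 0.143).

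**Figure D2:**
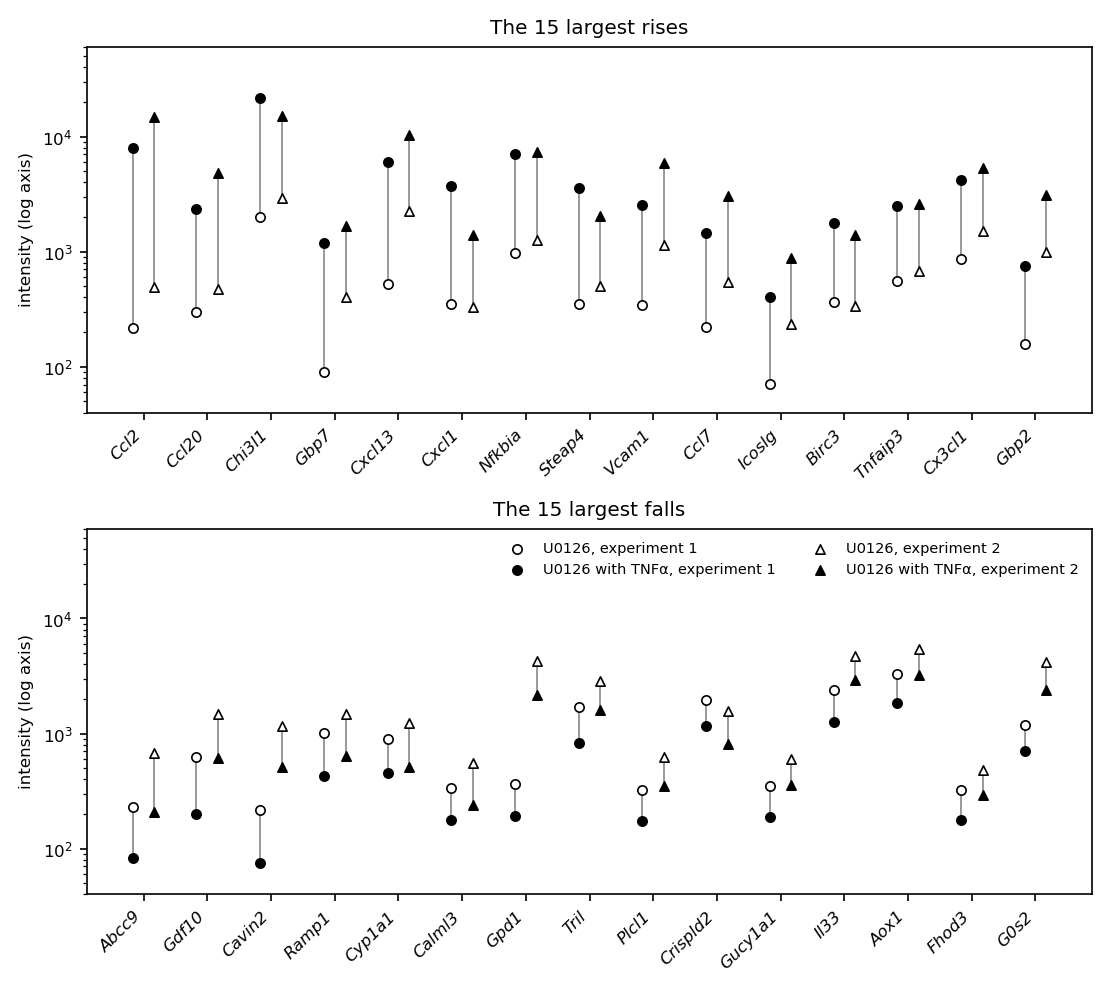
Intensity on a log axis of the 15 genes with the largest rises (top) and the 15 with the largest falls (bottom) among genes called by limma. Open symbols are U0126, filled symbols U0126 with TNFα, circles experiment 1 and triangles experiment 2, and a line joins the arrays of 1 experiment. Both lines of each gene run the same way because the genes were chosen so, and many genes start from a higher level in experiment 2.

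The genes in the plot of the largest rises and falls were chosen to have the same direction in both experiments, so the plot cannot test it. Their starting level often differed between the experiments. With U0126 alone, 13 of the 15 genes with the largest rises and 14 of the 15 with the largest falls were higher in experiment 2 than in experiment 1, by median log2 differences of 0.79 and 0.80. Over all genes 48.1% were higher in experiment 2, with a median of -0.01. The part of this difference in the results was not tested.

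The NF-κB list, which holds its subunits, inhibitors and known feedback targets, had 15 of 30 members called, all higher, with a median log2 change of 0.77. In both experiments 24 members were higher. Nfkbia rose from 981 and 1261 to 7014 and 7322, by 7.15-fold and 5.81-fold (log2 2.69 ± 0.10, SE, adjusted p = 4.76e-04). Tnfaip3, which encodes the ubiquitin-editing inhibitor A20, rose from 552 and 679 to 2512 and 2587 (log2 2.06 ± 0.09, SE, adjusted p = 6.93e-04). Both negative regulators thus reached nearly the same level in the 2 experiments with TNFα. Tnip1, the partner of A20, rose by log2 1.40 (adjusted p = 0.00281).

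Among the subunits, Relb rose from 823 and 956 to 2487 and 2888, 3.02-fold in each experiment (adjusted p = 8.80e-04). Nfkb2, the precursor of p52, rose from 873 and 900 to 2208 and 2386 (log2 1.37 ± 0.06, SE, adjusted p = 6.74e-04), and Nfkb1, the precursor of p50, by log2 0.50 (adjusted p = 0.0384). Bcl3, an IκB-like nuclear cofactor, rose by 0.89 (adjusted p = 0.00944) and the kinase gene Ikbkb by 0.64 (adjusted p = 0.0262), both on the log2 scale. The genes of both NF-κB precursors and of Relb were therefore higher in each experiment.

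The apoptosis inhibitors that TNF receptors recruit, which are on the NF-κB list too, were higher. Birc3 rose from 369 and 337 to 1766 and 1395 (log2 2.16 ± 0.11, SE, adjusted p = 8.80e-04), and Birc2 from 1826 and 1585 to 4030 and 2570 (log2 0.92, adjusted p = 0.0214). Of 27 apoptosis genes, 4 were called, all higher, and besides these 2 they were the death receptor Fas (1565 and 1172 to 3025 and 2925, adjusted p = 0.00961) and the BH3-only gene Bid (log2 0.55, adjusted p = 0.0224). Of 37 cytokine receptors and adaptors, 7 were called, all higher: Fas, the adaptors Traf2 (log2 0.63) and Traf3 (log2 0.77), the interferon-γ receptor chains Ifngr1 (log2 0.53) and Ifngr2 (log2 0.70), the shared interleukin-6 receptor chain Il6st (log2 0.97) and Ripk2, a kinase below the NOD receptors. Ripk2 rose from 486 and 650 to 1313 and 1857 (adjusted p = 0.00467).

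Of 16 leukocyte adhesion genes, 2 were called, both higher and both on the NF-κB list too. The median log2 change of the list was 0.00, with 5 members lower in both experiments. Vcam1, a ligand of leukocyte integrins, rose from 347 and 1144 to 2529 and 5951 (log2 2.62 ± 0.25, SE, adjusted p = 0.00659). Icam1, another integrin ligand, rose from 6303 and 5578 to 15708 and 12551 (log2 1.24 ± 0.07, SE, adjusted p = 0.00134). Icoslg, a costimulatory ligand for T cells, was among the largest rises outside that list, from 70.9 and 237 to 401 and 880 (log2 2.20 ± 0.23, SE, adjusted p = 0.0104). The levels of Vcam1, Icam1 and Icoslg with TNFα did not overlap with those without it.

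Of 28 cytokines and colony-stimulating factors, 5 were higher and 3 lower at an unadjusted limma p under 0.05. Over all genes 1967 of 14217 met this either way. The list had a median log2 change of 0.08, with 2 members called higher and 1 lower. Both risen genes encode ligands of the macrophage growth factor receptor Csf1r: Csf1 went from 2539 and 2718 to 6403 and 6189, by 2.52-fold and 2.28-fold (log2 1.26 ± 0.11, SE, adjusted p = 0.00532), and Il34 from 230 and 272 to 560 and 530 (log2 1.12, adjusted p = 0.0231). Il33, an alarmin stored in the nucleus, fell from 2413 and 4745 to 1267 and 2932 (log2 -0.81 ± 0.10, SE, adjusted p = 0.0147).

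Genes known as interferon targets rose in part. Of 24 interferon regulatory factors, STATs and SOCS genes, 2 were called, both higher. They were Irf1, from 1270 and 2034 to 4003 and 5755 (log2 1.58 ± 0.08, SE, adjusted p = 8.80e-04), and Irf8, from 125 and 141 to 315 and 519 (log2 1.61 ± 0.21, SE, adjusted p = 0.0221). Of 41 interferon-stimulated genes and guanylate-binding proteins, 3 were called, all higher, with a median log2 change of 0.20. The guanylate-binding protein gene Gbp7 rose from 90.2 and 403 to 1194 and 1655, by 13.2-fold and 4.11-fold (log2 2.88 ± 0.43, SE, adjusted p = 0.0326). Gbp2 rose from 159 and 995 to 754 and 3136 (log2 1.95, adjusted p = 0.0167), so that its level with TNFα in experiment 1 lay under the level without TNFα in experiment 2. The third was Parp14 (log2 0.79, adjusted p = 0.0233).

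The 5 proteasome genes called higher of 35 measured were those of the immunoproteasome, the form that makes peptides for MHC class I: the catalytic subunits Psmb8, Psmb9 and Psmb10 and the activator subunits Psme1 and Psme2. Psmb9 rose from 742 and 2124 to 3121 and 6163 (log2 1.80 ± 0.15, SE, adjusted p = 0.00451). Psmb8 rose by log2 1.53 (adjusted p = 0.0251), Psmb10 by 1.32 (adjusted p = 0.00594), Psme1 by 0.71 (adjusted p = 0.0150) and Psme2 by 0.77 (adjusted p = 0.00625). The other 30 proteasome members were not called and had log2 changes from -0.07 to 0.41. With 1 array left out these 5 calls, and the 5 of MHC class I described next, fell to as few as 0, and with no block for the experiment 0 were called. Of 19 genes of MHC class I and peptide loading, 5 were called, all higher, with a median log2 change of 0.32, and 17 were higher in both experiments. They were the peptide transporter subunits Tap1 (log2 0.88, adjusted p = 0.00594) and Tap2 (log2 0.92, adjusted p = 0.0155), the loading factor Tapbp (log2 1.09, adjusted p = 0.0272) and the class I genes RT1-M3-1 (log2 0.64) and RT1-T24-4 (log2 0.67), whose probes may read near-identical class I copies. By limma 0 of 10 MHC class II genes were called, and 5 had an unadjusted p under 0.05, all higher.

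**Figure D3:**
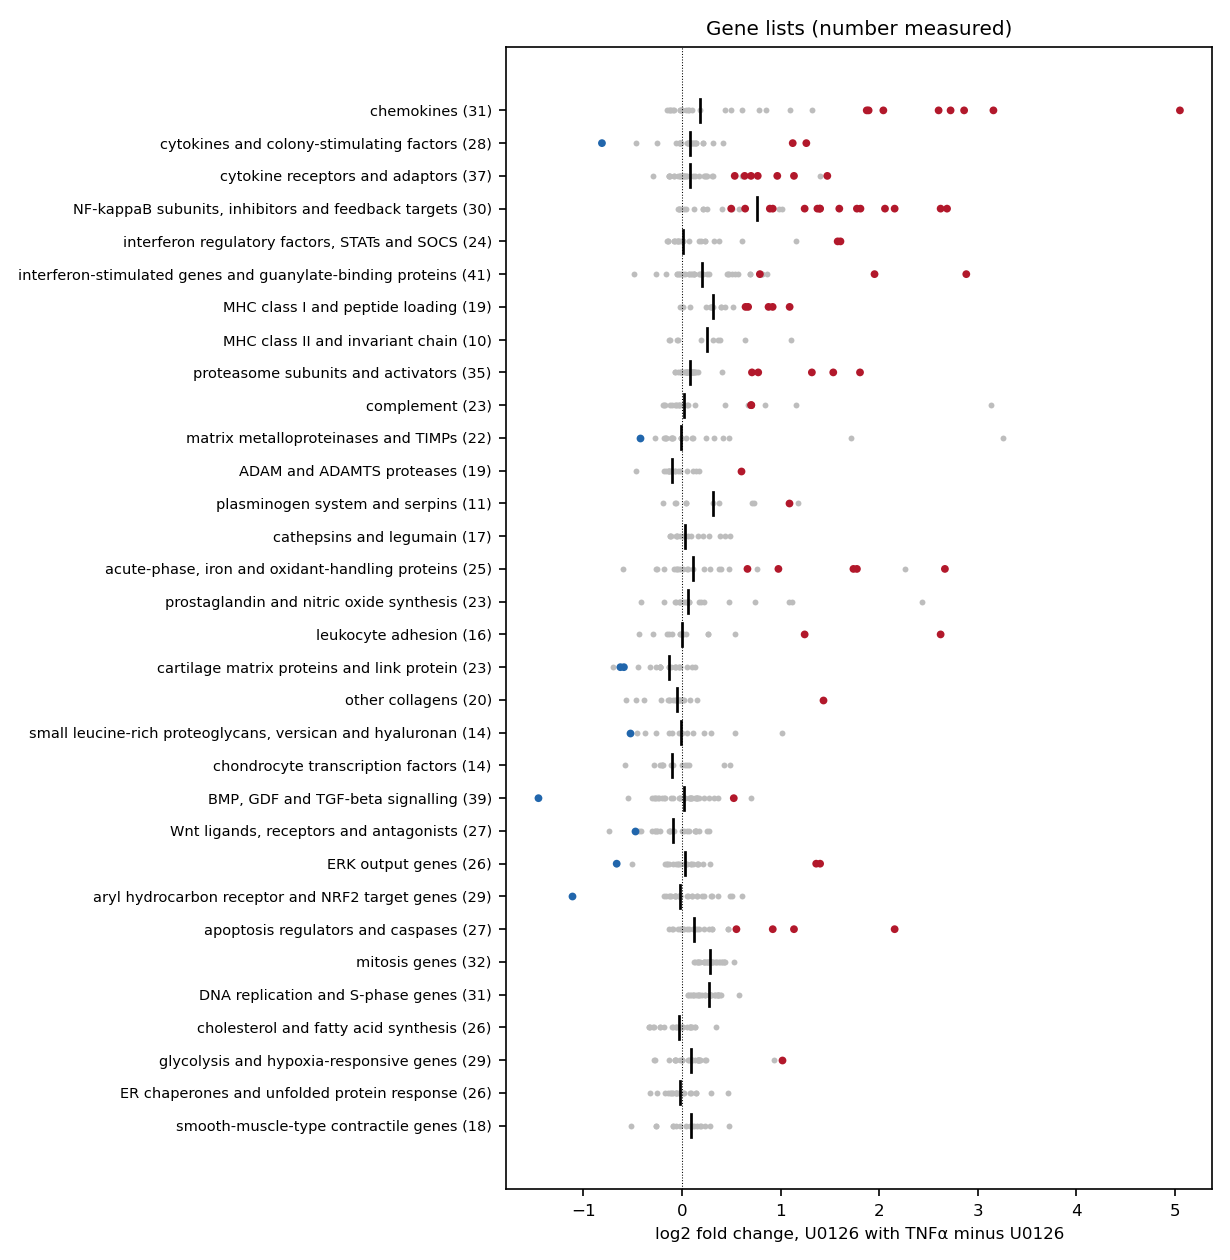
Log2 change, U0126 with TNFα minus U0126, of each measured gene of the 32 gene lists, with the number measured in brackets. Red points are called higher, blue points called lower and grey points not called by limma, and the black bar is the median of the list. The NF-κB list has its median at 0.77, and the mitosis and DNA replication lists lie to the right of 0 with no member called.

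Proteins secreted in the acute phase and handlers of iron and oxidants had 5 of 25 members called, all higher. Steap4, a metalloreductase, rose from 353 and 508 to 3560 and 2028 (log2 2.67 ± 0.36, SE, adjusted p = 0.0231). The mitochondrial superoxide dismutase Sod2, which is on the NF-κB list too, rose from 2349 and 2875 to 10886 and 7253 (log2 1.77, adjusted p = 0.0288). Hp, haptoglobin, rose from 549 and 1589 to 1759 and 5521 (log2 1.74, adjusted p = 0.0104). Ceruloplasmin, Cp (log2 0.98, adjusted p = 0.0109), and the iron transporter Slc11a2 (log2 0.66, adjusted p = 0.0180) were the others. Chi3l1, a chitinase-like glycoprotein secreted by chondrocytes, was the third largest rise among the called genes: its intensity went from 1990 and 2934 to 21722 and 15166, by 10.9-fold and 5.17-fold (log2 2.91 ± 0.28, SE, adjusted p = 0.00741).

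Several genes with large folds did not pass the test and differed between the experiments. Mmp3, stromelysin, had 390 and 894 with U0126 and 8718 and 3632 with TNFα added. Its rise was 22.4-fold in experiment 1 and 4.06-fold in experiment 2 (log2 3.25 ± 0.66, SE, adjusted p = 0.0843). With U0126 alone Mmp3 was 0.36 times its level with DMSO in each experiment, and with TNFα alone it had 25624 and 11192. C3, the central complement component, had 656 and 3576 against 12781 and 14199, 19.5-fold and 3.97-fold (log2 3.14 ± 0.55, SE, adjusted p = 0.0564). Pla2g2a, a secreted phospholipase, had folds of 11.4 and 2.56 (adjusted p = 0.182). For all of these the TNFα array was above its paired array in both experiments.

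Of 22 matrix metalloproteinases and TIMPs, 1 was called by limma, Mmp16, a membrane-bound member that fell (log2 -0.43, adjusted p = 0.0467), and 3 others had a higher value at an unadjusted p under 0.05. Collagenase 3, Mmp13, had 378 and 666 with U0126 and 2286 and 1186 with U0126 and TNFα (log2 1.71 ± 0.57, SE, adjusted p = 0.274). With U0126 alone Mmp13 was 0.32 and 0.35 times its level with DMSO, and with TNFα alone it had 17893 and 5810. Mmp9 had folds of 1.05 and 1.49 (adjusted p = 0.585) and Mmp12 of 1.45 and 1.34 (adjusted p = 0.593). Among other proteases, the sheddase Adam17, which releases TNFα from the membrane, rose from 2515 and 2412 to 3905 and 3566 (log2 0.60, adjusted p = 0.0304), the only call among 19 ADAM and ADAMTS genes. Urokinase, Plau, rose by log2 1.08 (adjusted p = 0.00888), the only call among 11 plasminogen system genes and serpins. By limma 0 of 17 cathepsin genes were called, and 2 had an unadjusted p under 0.05, against 1967 of 14217 over all genes.

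Cartilage matrix genes mostly stayed short of the threshold. Of 23 measured, 2 were called, both lower, and 8 had an unadjusted p under 0.05. The median log2 change of the list was -0.13, and 16 members were lower in both experiments. Acan, the aggrecan core protein, had 23396 and 13501 with U0126 and 23031 and 12456 with TNFα added, folds of 0.98 and 0.92 (log2 -0.07 ± 0.06, SE, adjusted p = 0.727). Col2a1, the main cartilage collagen, had 31287 and 27619 against 30975 and 26725 (log2 -0.03, adjusted p = 0.892), near the top of the range of the arrays. Its dimmer probe sets went opposite ways and were not called. They had folds of 0.50 and 0.86 (log2 -0.62, adjusted p = 0.166) and of 1.02 and 1.83 (log2 0.45, adjusted p = 0.498). Hapln1, the link protein of aggrecan, had 20942 and 9845 against 19227 and 8921 (log2 -0.13, adjusted p = 0.635). A dimmer probe set of Hapln1 went from 8363 and 4596 to 5932 and 3625 and was called (log2 -0.42, adjusted p = 0.0411), so its probe sets did not give 1 answer.

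The called members were Scrg1, a small secreted protein first described in scrapie brain, from 7408 and 3358 to 4482 and 2334 (log2 -0.62, adjusted p = 0.0128), and the matrix protein gene Vit (log2 -0.59, adjusted p = 0.0417). Mia, a secreted cartilage protein, had 5548 and 2894 against 3232 and 1890 and missed the threshold (log2 -0.70, adjusted p = 0.0523). Among 14 small leucine-rich proteoglycans and related genes, Aspn, asporin, fell by log2 0.52 (adjusted p = 0.0156) and was the only one called. Among 20 other collagens, Col18a1, the precursor of endostatin, rose from 917 and 1947 to 2917 and 4421 (log2 1.43, adjusted p = 0.0290) and was likewise the only one called. By limma 0 of 14 chondrocyte transcription factors were called and 5 had an unadjusted p under 0.05. Sox9 had no probe set with a single symbol.

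The largest falls came from several functions. Abcc9, a regulatory subunit of ATP-sensitive potassium channels, fell from 230 and 679 to 83.1 and 206, folds of 0.36 and 0.30 (log2 -1.59 ± 0.16, SE, adjusted p = 0.00828). Gdf10, a BMP-related ligand, fell from 620 and 1478 to 200 and 610 (log2 -1.46 ± 0.20, SE, adjusted p = 0.0242). Cavin2, a coat protein of caveolae, fell from 215 and 1162 to 75.7 and 512 (log2 -1.34 ± 0.17, SE, adjusted p = 0.0180). In the last, experiment 2 with TNFα was still above experiment 1 without it, so only the paired values separate the groups.

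Ramp1, which makes a receptor for calcitonin gene-related peptide, fell from 1003 and 1470 to 429 and 634, to a fold of 0.43 in each experiment (adjusted p = 0.00279). Its level with U0126 alone was 2.18 and 2.16 times that with DMSO. Cyp1a1, the classical target of the aryl hydrocarbon receptor, fell from 889 and 1225 to 454 and 509 (log2 -1.12 ± 0.15, SE, adjusted p = 0.0244). It was the only one of 29 aryl hydrocarbon receptor and NRF2 target genes called. At an unadjusted limma p under 0.05, 6 members of that list were higher and only Cyp1a1 lower. Over all genes 1967 of 14217 met this either way. The calmodulin-like gene Calml3 fell from 337 and 552 to 176 and 241 (log2 -1.07, adjusted p = 0.00625). Aox1, aldehyde oxidase, fell from 3267 and 5436 to 1844 and 3214 (log2 -0.79, adjusted p = 0.00659).

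Tril, an accessory protein of Toll-like receptors, fell by log2 0.94 (adjusted p = 0.0456) and Fhod3, a formin, by 0.79 (adjusted p = 0.0102). Gucy1a1, a subunit of the nitric oxide receptor, fell by log2 0.82 (adjusted p = 0.0332) by its brightest probe set. Its other probe set, nearly as bright, had folds of 0.95 and 1.04 (log2 -0.01, adjusted p = 0.979). Gpd1, which makes glycerol phosphate for lipid synthesis, fell from 367 and 4227 to 191 and 2160 (log2 -0.95 ± 0.07, SE, adjusted p = 0.00310), and G0s2, an inhibitor of fat breakdown, from 1192 and 4203 to 711 and 2391 (log2 -0.78, adjusted p = 0.00828). The level of Gpd1 was far higher in experiment 2, while its folds of 0.52 and 0.51 were nearly equal. Tcf7, a transcription factor of the Wnt pathway, was the only one of 27 Wnt genes called (log2 -0.47, adjusted p = 0.0231).

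Gpd1 and G0s2 are expressed by fat cells among others, and the summed markers of adipocytes moved with them. The summed intensity of the 5 adipocyte markers was 2486 and 19212 with U0126 in experiments 1 and 2, and 1864 and 13793 with TNFα added. Fabp4 had 1395 and 13609 against 863 and 10010 (adjusted p = 0.189), Adipoq 257 and 1689 against 226 and 1095 (adjusted p = 0.270), and Plin1 fell from 381 and 3042 to 272 and 2094 (log2 -0.51, adjusted p = 0.0443). Cidec had 279 and 728 against 344 and 449, higher in experiment 1 and lower in experiment 2 (adjusted p = 0.770), and Lep 174 and 144 against 159 and 145 (adjusted p = 0.797). The sum, and Fabp4, Plin1 and Adipoq, were thus lower with TNFα in both experiments and higher in experiment 2 than in experiment 1, while Cidec and Lep did not follow this pattern in full. Their part in the falls was not tested.

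**Figure D4:**
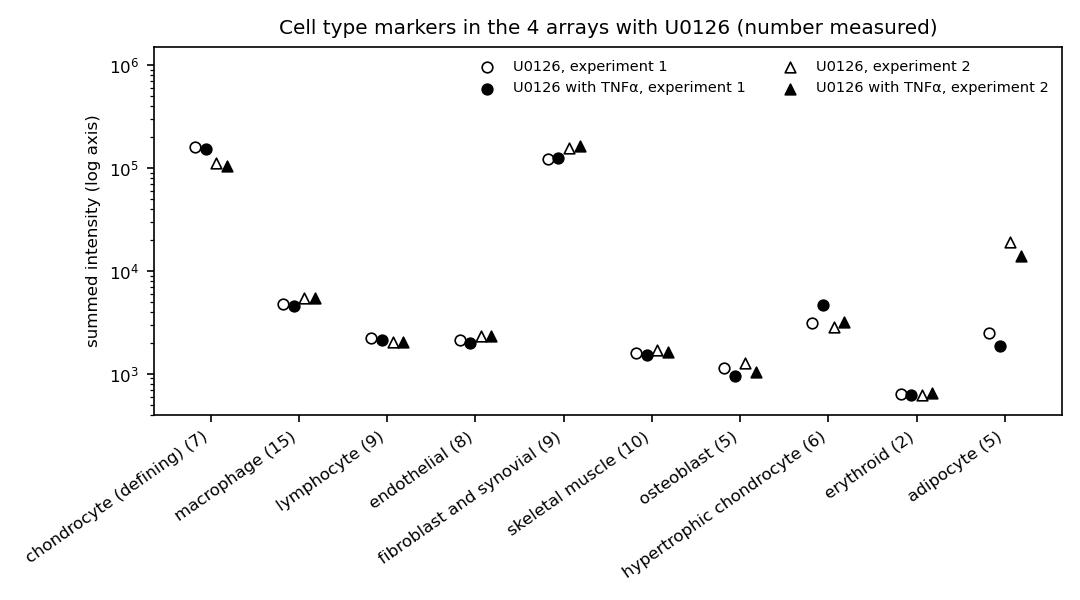
Summed intensity on a log axis of the markers of 10 cell types in the 4 arrays with U0126, with the number of markers measured in brackets. Open symbols are U0126, filled symbols U0126 with TNFα, circles experiment 1 and triangles experiment 2. Chondrocyte markers sum to 103788 or more in all 4 arrays, and adipocyte markers differ most between the experiments.

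The label of chondrocytes was checked on their defining markers, as in the plot of marker sums. The 7 measured summed to 161316 and 111417 with U0126 and to 152976 and 103788 with TNFα added. The 9 markers of fibroblasts and synovium, some of which cultured chondrocytes also make, summed to 122432 and 157129, and to 126455 and 163559 with TNFα. The 15 macrophage markers summed to 4733 and 5502 without and 4559 and 5448 with TNFα, and the 9 lymphocyte markers ranged from 2039 to 2234, the 8 endothelial markers from 1970 to 2345, the 10 skeletal muscle markers from 1524 to 1692 and the 2 erythroid markers from 617 to 643 over the 4 arrays. The 5 osteoblast markers summed to 1143 and 1280 without and 961 and 1029 with TNFα. The 6 markers of hypertrophic chondrocytes, which include Mmp13, summed to 3120 and 2832 without and 4702 and 3167 with TNFα. Marker sums of leukocytes and endothelium were thus not higher with TNFα, but sums over a whole culture cannot show a change in a few cells. Clec14a, an endothelial lectin not among these markers, was called higher. It rose from 29.3 and 72.5 to 63.3 and 294.5 (log2 1.57, limma adjusted p = 0.0291). The cells that made the immune transcripts were not tested.

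Genes known to depend on ERK were read with U0126 present throughout. Of 26 ERK output genes, 2 were called higher and 1 lower. Junb, a component of AP-1, rose from 852 and 847 to 2537 and 1876 (log2 1.36, adjusted p = 0.0283), and Ier3, which is on the NF-κB list too, from 1582 and 1203 to 4457 and 2975 (log2 1.40, adjusted p = 0.0298). Etv1, an ETS factor, fell from 409 and 796 to 272 and 478 (log2 -0.66, adjusted p = 0.0386), and 1 of its other 4 probe sets was called as well (log2 -0.69, adjusted p = 0.00936). Egr1, an immediate early transcription factor, had 1263 and 1659 against 1763 and 1491, a fold of 1.40 in experiment 1 and 0.90 in experiment 2 (adjusted p = 0.753). At 24 h its direction thus differed between the experiments. With U0126 alone Egr1 was 0.35 and 0.36 times its level with DMSO.

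Genes of cell division had small values in 1 direction and no call. The 32 mitosis genes had log2 changes from 0.12 to 0.53 with a median of 0.29, and 31 were higher in both experiments. The 31 genes of DNA replication and S phase had changes from 0.06 to 0.58 with a median of 0.28, and 29 were higher in both. By limma 0 genes of either list were called, and 0 mitosis and 9 replication genes had an unadjusted p under 0.05. Without U0126 the medians were 0.31 and 0.19. By limma 0 genes were called among 26 of cholesterol and fatty acid synthesis and 26 of the unfolded protein response. Nor were any of 18 contractile genes or 23 of prostaglandin and nitric oxide synthesis. In this order 8, 3, 5 and 6 had an unadjusted p under 0.05, against 1967 of 14217 over all genes. Egln3, an oxygen-sensing hydroxylase, was the only one called of 29 glycolysis and hypoxia genes (log2 1.01, adjusted p = 0.0244). The complement list had Cd55, a complement inhibitor, and Masp1, a protease of the lectin pathway, called higher of 23 (log2 0.70 each).

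The response without U0126 was read from 4 other arrays, but the same fit gave both responses 1 spread per probe set and 1 block. The calls of both are therefore not independent. There, TNFα against DMSO gave 602 genes higher (4.23%) and 297 lower (2.09%) by the same fit. Of the 238 genes called with U0126, 214 were called in the same direction without it, which is 89.9% of the genes called with U0126 and 23.8% of the 899 called without it, and 0 were called in opposite directions. By the fold rule the genes passing in both were 185, or 83.0% of those passing with U0126 and 48.3% of those without. Among the genes called higher with U0126, 144 of 166 had a larger log2 rise without it. Among those called lower, 21 of 72 had a larger fall without it. All were selected for their response with U0126, which favours a larger change there, so neither count is a test of a difference. Without U0126, 21 of 30 NF-κB genes with a median of 1.05, 14 of 41 interferon-stimulated genes, 12 of 19 MHC class I genes and 12 of 31 chemokines were called higher, and 13 of 23 cartilage matrix genes were called lower with a median of -0.40.

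The difference between both responses was tested by itself. By limma 0 of 31042 probe sets passed, 2836 had an unadjusted p under 0.05, and the lowest adjusted p was 0.5. Differences below are therefore sizes with no call. Ccl2 had log2 changes of 5.05 with and 5.01 without U0126, and Nfkbia of 2.69 and 2.78. Acan had -0.07 with U0126 and -0.56 without (adjusted p = 0.00641 for the latter), a difference of 0.49 with a 95% confidence interval from 0.28 to 0.71. For Hapln1 the difference was 0.41 (0.09 to 0.73).

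**Figure D5:**
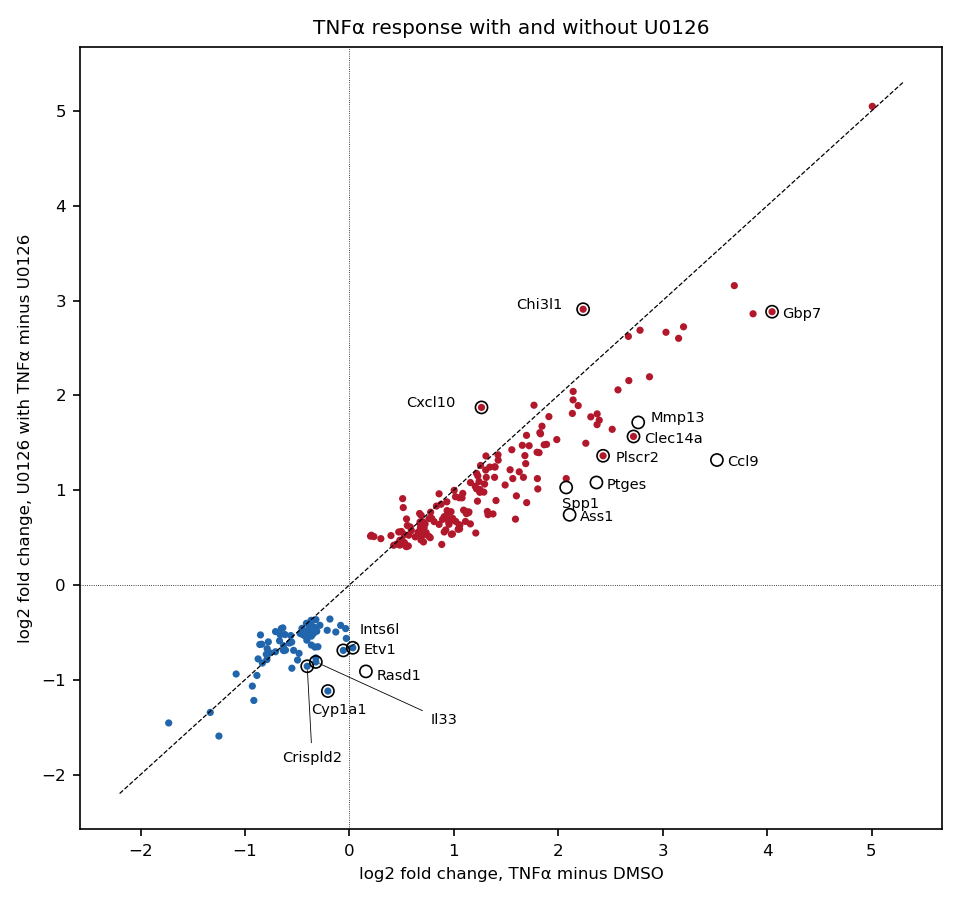
Log2 change with TNFα without U0126 (horizontal) and with U0126 (vertical). Red and blue points are genes called higher and lower with U0126, open circles mark, among genes past the fold rule with U0126, the 8 at each end of the difference between the responses, and the dashed line marks equal change. Most red points lie below the line, and Ccl2 lies on it.

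Among genes past the fold rule with U0126, those that moved most relative to the response without it are circled in the plot of both responses. They were chosen by the size of this difference and their intervals are not adjusted, so an interval without 0 is not a call. Ccl9, a chemokine, had the largest gap: it had 59.3 and 54.1 with DMSO and 821 and 515 with TNFα alone, against 86.7 and 61.8 and then 148 and 225 with U0126 (difference -2.2, interval -3.10 to -1.30). Ass1, which joins citrulline and aspartate on the way to arginine, had log2 0.74 with and 2.11 without U0126 (difference -1.37, interval -1.81 to -0.93). The endothelial lectin Clec14a (-1.15, interval -1.91 to -0.39) and the scramblase Plscr2 (-1.07, interval -1.79 to -0.34) also had smaller rises with U0126. So had the others at this end, with intervals that included 0. They were Ptges, which makes prostaglandin E (-1.28, interval -3 to 0.43), Gbp7 (-1.17, interval -2.61 to 0.28), Mmp13 (-1.05, interval -2.96 to 0.85) and osteopontin, Spp1 (-1.05, interval -2.34 to 0.24).

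Of the 8 genes with the largest change relative to the response without U0126, 6 fell. They were chosen among genes past the fold rule with U0126, which favours larger changes there, so this count is not a test. They were also chosen by the size of this difference, so here too an interval without 0 is not a call. Cyp1a1 had 363 and 343 with DMSO and 331 and 283 with TNFα alone (log2 -0.21), so that its fall was 0.91 larger with U0126 on the log2 scale (interval of the difference -1.42 to -0.40). Its level with U0126 alone, in the same arrays that the response is read against, was 2.45 and 3.58 times that with DMSO. Etv1 had log2 0.03 without U0126 and its fall was 0.70 larger with it (interval -1.04 to -0.35). The differences of the other falls were -0.63 for Ints6l (interval -1 to -0.27), -0.49 for Il33 (-0.81 to -0.17), -0.45 for Crispld2 (-0.81 to -0.09) and -1.07 for Rasd1, a Ras-like protein, whose interval included 0 (-2.16 to 0.02). Those of the rises were 0.61 for Cxcl10 (0.07 to 1.14) and 0.67 for Chi3l1, whose interval included 0 (-0.27 to 1.61). With U0126 alone Chi3l1 was 0.45 and 0.43 times its level with DMSO, and with TNFα alone it had 28632 and 23080. Ints6l was 1.80 and 1.31 times its level with DMSO. For the rest of the 8 besides Cyp1a1, this ratio lay between 0.77 and 1.28. Rasd1 was not called in either response. Cxcl10 had 220 and 261 with DMSO and 483 and 688 with TNFα alone.

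Called with U0126 and not without it were 4 genes higher and 20 lower, which is not a test of a difference. All 4 and 17 of the 20 had the same sign in both experiments without U0126. The 4 were Vamp5 (log2 0.49), the cell cycle inhibitor Cdkn2b (0.51), the adenosine receptor Adora1 (0.51) and Id4, an inhibitor of helix-loop-helix factors (0.52). The first 3 of these were named after their values were seen.

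Different probe sets of a gene were compared for the named genes that were called. Of these 86 genes, 28 had another probe set, 45 in all, of which 44 had the same sign and 19 were called. In 15 of the 28 genes no other probe set was called, among them Gucy1a1, Icoslg, Il33 and Masp1. Of the 96 named genes not called, 34 had another probe set, 54 in all, and in 7 of these genes one was called: Bmp2, Col15a1, Cxcl12, Elovl6, Hapln1, Serpinb9 and Timp3. The counts of the lists, read from the brightest probe set of each gene, leave these 7 out.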

How the data were processed

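Affymetrix RAT230_2.0 arrays were hybridised with biotin-labelled cRNA from 8 cultures, 2 for each of 4 treatments. The deposited values were linear intensities, 1 per probe set and array. The submitters' processing notes name RMA without a version, and the study's methods describe GeneSpring with scaling to a median. Which of these gave the deposited intensity table, and whether it was background-corrected, is not settled by the sources used here. Array medians ranged from 364 to 378 and values from 15.2 to 34845, and the number of arrays limits the precision.

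The log2 of each intensity was taken and centred on the array median. Printed intensities are these centred values brought back to the linear scale. Of 31099 probe sets, 57 controls were left out. The platform annotation gave 1 symbol to 20826, several to 436 and none to 9780, and 20758 Entrez numbers were found in the RefSeq table. A gene was read from its probe set with the highest mean over all 8 arrays. limma 3.58.1 (R 4.3.3) was fitted on all 8 arrays with treatment and experiment, leaving 3 residual degrees of freedom, and adjusted over 31042 probe sets. Tables and figures used Python 3.11.15, and the fit was tested on simulated data.

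Arrays with the same replicate number were treated as 1 experiment because the methods set arrays against the control of the same experiment. Deviations of same-numbered arrays from their group means correlated at 0.728 to 0.829 over all 6 pairs of groups. Genes were named by rule. The first were the 15 largest rises and 15 largest falls called with the same direction in both experiments. Next came up to 4 members of each gene list with the smallest adjusted p, and further members called. The last were the 8 genes at each end of the difference from the response without U0126, and genes that the study names. Other names were chosen after their values were seen. The comparison, its members and the gene lists were chosen with earlier results of these data known. Alternatives were quantile normalisation, no centring, a filter on the dimmest 40% of probe sets, trended and robust variance, no replicate block, 1 probe set per gene, the 4 U0126 arrays alone, fold thresholds of 1.3 and 2, and leaving out each array.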

Additional observations from a re-analysis of the deposited data

How the results depend on the processing

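The counts of limma calls depended on the block for the experiment and on each array with U0126. Without the replicate block, that is with the pairing ignored, 5 probe sets were called higher, 0 lower and 0 with a different response, and of the 86 named genes called only Nfkb2, Nfkbia and Tnfaip3 kept their call. With only the 4 arrays with U0126 in the fit, 566 were higher and 364 lower, and 379 of the 380 called with all arrays were among them. Leaving out 1 array at a time gave 20 to 375 higher, 0 to 197 lower and 0 to 2 with a different response. The 2 came without the array of TNFα alone of experiment 2, the 375 and 197 without either array of TNFα alone, and the lowest counts without the U0126 array of experiment 1, followed by 30 and 2 without the U0126 with TNFα array of experiment 1, 41 and 3 without that of experiment 2, and 52 and 1 without the U0126 array of experiment 2. Of the named genes, 10 kept their call without any 1 of these 4 arrays: Birc3, Ccl2, Ccl7, Cxcl11, Icam1, Irf1, Nfkb2, Nfkbia, Relb and Tnfaip3.

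Quantile normalisation, no centring, leaving out the dimmest 40% of probe sets, a trended or robust prior variance and 1 probe set per gene gave 196 to 279 higher and 108 to 150 lower. The fold rule gave 504 higher and 284 lower at a fold of 1.3, 93 and 6 at 2, 538 and 218 in experiment 1 alone, 483 and 278 in experiment 2 alone, 172 and 51 with 1 probe set per gene, and 440 and 191 on the geometric mean of the experiments.

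No called gene that is named changed sign. Of those not called, 5 did, and their log2 changes with 1 array left out ranged from -0.07 to 0.01 for Col2a1, -0.17 to 0.37 for Cyp4b1, -0.07 to 0.39 for Egr1, -0.04 to 0.69 for Mmp9 and -0.11 to 0.31 for Vegfa. The sign turned without the U0126 array of experiment 1 for Cyp4b1 (-0.17), Egr1 (-0.03) and Vegfa (-0.02), without that of experiment 2 for Col2a1 and Mmp9, without the U0126 with TNFα array of experiment 1 for Egr1 (-0.07) and without that of experiment 2 for Cyp4b1 (-0.08) and Vegfa (-0.11). The causes of these changes were not tested. With 2 experiments, a gene whose fold differed between them had a large standard error, as Mmp3 and C3 show. Because the spread was taken over all 8 arrays, so could a gene with near-equal folds with U0126. Spp1 had folds of 1.99 and 2.09 with U0126 and of 8.29 and 2.14 without it. Its standard error with U0126 was 0.39 on the log2 scale.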
